A study of Sus scrofa with 30 samples.

Results

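The genes described here belong to the major histocompatibility complex (MHC) class I pathway of antigen presentation. They are 10 symbols fixed by name, which are SLA-1, SLA-2, SLA-3, SLA-6, SLA-8, B2M, TAP1, TAP2, TAPBP and CD74. Looked up by symbol among the NCBI gene identifiers of the count table of all embryos, the 10 symbols gave 11 of its 13103 genes, because B2M stands there under 2 identifiers, called B2M copy 1 and B2M copy 2 below. RNA of 30 single pig embryos was sequenced, and each of Days 8, 10 and 12 post insemination gave 5 females and 5 males. Each library held the mRNA of 1 whole embryo, with embryonic disc and trophectoderm together. The embryos came from German Landrace × Pietrain crossbred gilts whose cycles had been synchronized with altrenogest, PMSG and human chorion gonadotropin, and all gilts were inseminated with sperm of 1 Pietrain boar. On each day 4 gilts were slaughtered, and per the study's methods females and males were taken from shared sows, but the labels do not say which embryos were littermates. P-values therefore measure the spread between single embryos, some of which shared a mother. Because whole embryos were measured, fewer cells that express a gene and less RNA per cell cannot be told apart.

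In pigs the MHC is called the swine leukocyte antigen (SLA) complex. A class I molecule pairs an SLA heavy chain with beta-2-microglobulin, the product of B2M. Peptides cut from proteins of the cell by the proteasome are carried into the endoplasmic reticulum by the TAP1-TAP2 transporter. There tapasin, the product of TAPBP, holds the empty class I molecule next to the transporter until a peptide is bound, and the loaded molecule goes to the cell surface, where T cells and natural killer cells read it. The classical heavy chains SLA-1, SLA-2 and SLA-3 present most peptides to T cells, and SLA-6 and SLA-8 belong to the nonclassical group. CD74, the invariant chain, guides class II molecules. The embryo carries heavy chains inherited from the sire, so the level of class I on the trophectoderm, the layer that meets the uterine epithelium, bears on how the mother tolerates it.

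Class I mRNA was scarce in Day 8 embryos and higher in every Day 12 embryo than in any of them. The summed level of the heavy chain genes had a median of 4.68 on Day 8, a median of 4.64 on Day 10 and a median of 25.1 on Day 12 in CPM, the counts of a gene scaled to a fixed library size, and the sum of both B2M copies went from 1.19 through 6.60 to 23.2 CPM. Both sums rose from Day 8 to Day 12, the heavy chains 6.12-fold and B2M 10.7-fold. Day 10 embryos differed widely in SLA-1, SLA-2, SLA-3 and B2M, and the interval in which a rise was called depended on them: with 4 of the Day 10 embryos alone it lay before Day 10 and with the other 6 alone after it. This split was chosen after the values were seen and parts embryos high in these genes from embryos low in them. The calls therefore follow in part from the split and are no test of timing. For B2M the interval was less clear, since its sum had a median of 4.08 CPM in those 6 embryos against 1.19 on Day 8. With d08_m_103 of Day 8 and 2 Day 12 embryos also left out, the rise of B2M before Day 10 was called with those 6 (log2 fold change 1.66). These embryos too were chosen after their values were seen. In summed B2M d08_m_103 was the highest of Day 8, with 13.9 CPM against at most 2.86 in the others. That call therefore follows in part from the choice and is no test. With all embryos TAPBP, TAP1, SLA-6, SLA-8 and CD74 rose from Day 10 to Day 12, but with those 4 embryos alone for Day 10 TAPBP was the only one of them called, and the call of CD74 also rested on 2 Day 12 embryos.

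Read totals ran from 6068212 to 34002508 counts with a median of 22202723. All 7 trophectoderm markers, among them the keratins KRT8 and KRT18, were in the table, with a summed level of 8331 to 49852 CPM, and so were 4 epiblast and 5 hypoblast markers. From Day 10 to Day 12, 4 trophectoderm markers fell and 1 rose, and the median of their sum went from 42119 to 12730 CPM. All 4 epiblast markers fell, and 3 hypoblast markers rose while 0 fell. Among all genes 14.9% rose and 8.39% fell. Of 15 leukocyte markers 5 were in the table, and of 9 markers of maternal uterus and blood 6 were. The Day 10 embryos carry numbers in 2 runs, and what the numbers stand for is not stated in the labels. The lower run runs from d10_f_315 to d10_f_336 and holds 6 embryos, 3 of them female, called the low-numbered embryos below. The higher run holds the 4 high-numbered embryos d10_f_433, d10_f_454, d10_m_435 and d10_m_453, which stood apart from the rest of Day 10. LAPTM5, a membrane protein of blood cells, ran from 0.409 to 4.34 CPM in them and from 0.0445 to 0.226 in the others, and ESR1, the estrogen receptor, from 0.566 to 4.65 against 0.0740 to 0.382 CPM. The summed lists overlapped between the runs, with 37.5 to 51.0 against 34.7 to 45.3 CPM for leukocytes and 24.1 to 47.1 against 18.2 to 37.5 CPM for maternal tissue. On Day 8 the male embryo d08_m_103 was the highest in LAPTM5 and ESR1, and on Day 12 the female embryo d12_f_245 was, while the male embryo d12_m_307 was the highest in ACP5, which codes for the uterine iron carrier uteroferrin, and in HBB, the beta chain of hemoglobin. The summed lists did not set these embryos apart in the same way, since the leukocyte sum of d08_m_103 (45.5 CPM) and that of d12_f_245 (87.2 CPM) were the lowest of their days and that of d12_m_307 was 103.3 CPM. Their sums for maternal tissue (19.5, 74.7 and 102 CPM) lay within the range of the other embryos of the day. These 3 and the 4 high-numbered embryos of Day 10, together the 7 embryos below, were chosen after their values were seen, and the main results are given with and without them.

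The genes lie on Sscrofa11.1 as follows. The classical heavy chains share 1 stretch of chromosome 7, with SLA-1 annotated from 22824137 to 22920154, SLA-2 from 22916747 to 22959405 and SLA-3 from 22938211 to 22942735. Their annotated spans overlap, since SLA-3 lies wholly within SLA-2 and SLA-1 runs over LOC100513601, another class I gene at 22888616 to 22920154. SLA-8 was found at 23622352 to 23625818 and SLA-6 at 23645335 to 23649342 of the same chromosome, with SLA-7, a further nonclassical gene, between them. TAP2 (25045085 to 25056915), TAP1 (25062772 to 25071989) and TAPBP (29663491 to 29673453, overlapping ZBTB22) follow on chromosome 7. B2M copy 1 was annotated on chromosome 1 from 126837721 to 126844043 and copy 2 from 126865767 to 126878501, and CD74 on chromosome 2 from 151402210 to 151409924. Heavy chain genes and B2M copies are near-identical in sequence, so their single values are uncertain wherever reads could be split between them. Sums over the 7 class I genes of the table and over the 2 B2M copies are therefore given too, and they do not depend on how reads were split among the summed genes. Reads that were discarded as shared, or given to other annotated genes that overlap SLA-1 or SLA-2 (SLA-5, LOC100515902 and LOC110261491), are not in the sums, and of these genes LOC100515902 was in the table (log2 fold change 3.87 from Day 8 to Day 12, SE 0.91, FDR 0.00037).

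SLA-1, a classical heavy chain, had the lowest, median and highest levels of 0.0743, 0.145 and 0.548 CPM on Day 8, 0, 0.308 and 7.37 CPM on Day 10, and 0.756, 5.21 and 19.7 CPM on Day 12. Every Day 12 embryo lay above every Day 8 embryo, and the 4 high-numbered Day 10 embryos (1.95 to 7.37 CPM) lay within the Day 12 range while the low-numbered embryos (0 to 0.356 CPM) lay within or below that of Day 8. Between days a gene was called differentially expressed (DEG) when its FDR was below 0.001 and it moved by more than 1 on the log2 scale, and these limits are the threshold named below. With all embryos SLA-1 rose 10.1-fold from Day 8 to Day 10 (log2 fold change 3.34, SE 0.81, FDR 0.00088, edgeR quasi-likelihood test with Benjamini-Hochberg adjustment). Low counts limit this value, since 6 of 10 Day 8 embryos had 3 reads or fewer, and the call was lost in 17 of the 30 fits that left out 1 embryo, where the log2 fold change ran from 2.83 to 3.75. When only the low-numbered embryos stood for Day 10, the log2 fold change was -0.23, and SLA-1 instead rose by 5.07 from Day 10 to Day 12. The rise from Day 8 to Day 12 was 28.5-fold (log2 4.83, SE 0.84, FDR 6.5e-06) and had a log2 value of 4.64 without the 7 embryos.

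SLA-2, annotated around SLA-3, had levels of 0.376, 0.550 and 2.55 CPM on Day 8, 0.407, 1.32 and 12.4 CPM on Day 10, and 3.90, 8.17 and 30.7 CPM on Day 12. Again the Day 12 embryos lay above all Day 8 embryos, with male embryo d08_m_103 the highest on Day 8 and male embryo d12_m_307 on Day 12, and the high-numbered embryos began at 4.0 CPM where the rest of Day 10 ended at 1.42. SLA-2 rose 12.4-fold from Day 8 to Day 12 (log2 3.63, SE 0.57, FDR 1.2e-06). Its log2 fold change of 2.17 from Day 8 to Day 10 missed the threshold (SE 0.55, FDR 0.0012), as did 1.46 from Day 10 to Day 12 (SE 0.51, FDR 0.014). With the low-numbered embryos alone the values were 0.20 and 3.43, and only the later one passed.

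SLA-3, the third classical heavy chain, spread widely on Day 10. Its levels were 0.0519, 0.352 and 1.37 CPM on Day 8, 0.148, 0.630 and 18.3 CPM on Day 10, and 0.697, 2.51 and 8.05 CPM on Day 12. Embryos d10_m_453 and d10_f_454 of Day 10, with 18.3 and 9.41 CPM, lay above every Day 12 embryo, and the days overlapped in each comparison. By the quasi-likelihood test no difference between days passed the threshold with all embryos, with log2 fold changes of 3.01 from Day 8 to Day 10 (SE 0.74, FDR 0.00101), -0.37 from Day 10 to Day 12 (SE 0.67, FDR 0.66) and 2.65 over both intervals (SE 0.74, FDR 0.0020). Over both intervals SLA-3 was called by the robust GLM (2.78), by DESeq2 (2.73) and with Days 8 and 12 alone in the fit (2.64). It was not called there with RLE factors, library size alone, the other filters, a sex term or 1 sex. From Day 8 to Day 10 it was called by DESeq2 (3.09) and with RLE factors (3.04), but not by the robust GLM (1.55) or the other alternatives at this threshold. When only the low-numbered embryos stood for Day 10, SLA-3 rose from Day 10 to Day 12 by a log2 value of 2.72, and without the 7 embryos it also rose from Day 8 to Day 12, by 2.50.

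SLA-6, a nonclassical heavy chain, was detected in every embryo from Day 8 on. Its levels were 1.62, 2.41 and 2.94 CPM on Day 8, 0.873, 1.73 and 3.54 CPM on Day 10, and 1.48, 4.61 and 5.88 CPM on Day 12. The days overlapped, with the lowest Day 12 embryo inside the Day 8 range. SLA-6 rose 2.17-fold from Day 10 to Day 12 (log2 1.12, SE 0.23, FDR 9.6e-05), and its log2 fold change from Day 8 to Day 10 was -0.24 (SE 0.23, FDR 0.39). Over both intervals the log2 fold change of 0.88 (SE 0.23, FDR 0.00092) stayed under the limit of 1. With the high-numbered embryos alone the later value was 0.65 and did not pass.

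SLA-8, the other nonclassical member, had levels of 0.208, 0.352 and 0.422 CPM on Day 8, 0.170, 0.496 and 1.52 CPM on Day 10, and 1.13, 2.03 and 3.0 CPM on Day 12. No Day 12 embryo fell into the Day 8 range, and Day 10 reached from below Day 8 into Day 12. The gene rose 3.03-fold from Day 10 to Day 12 (log2 1.60, SE 0.27, FDR 6.2e-06) and 6.07-fold over both intervals (log2 2.60, SE 0.29, FDR 1.8e-09), and the later value was 0.99 and did not pass with the high-numbered embryos alone. SLA-7, no member but counted in the class I sum, had medians of 0.281, 0.332 and 0.702 CPM and rose 3.74-fold from Day 8 to Day 12 (log2 1.90, SE 0.48, FDR 0.00076). LOC100513601 rose 8.48-fold (log2 3.08, SE 0.61, FDR 4.0e-05).

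Summed over the 7 class I genes, the heavy chains had 3.16, 4.68 and 7.51 CPM as the lowest, median and highest level on Day 8, 3.45, 4.64 and 48.5 CPM on Day 10, and 10.8, 25.1 and 77.5 CPM on Day 12. Within Day 10, the low-numbered embryos held 3.45 to 4.65 CPM and the high-numbered embryos held 13.0 to 48.5 CPM, and the runs did not overlap. The sum rose 6.12-fold from Day 8 to Day 12 (log2 2.61, SE 0.46, FDR 8.7e-06), and by a log2 value of 2.32 without the 7 embryos. Neither interval passed alone, with log2 fold changes of 1.57 (SE 0.45, FDR 0.0037) and 1.04 (SE 0.44, FDR 0.040). With the low-numbered embryos alone the values were -0.22 before Day 10 and 2.84 after it, and with the high-numbered embryos alone 2.61 and 0.00099. In the first case the later interval passed the threshold and in the second the earlier one. The runs were told apart after the values were seen, so these calls follow in part from the split.

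The share of SLA-6 in the class I counts was lower on Day 12 than on Day 8, and those of SLA-1 and SLA-2 were higher. SLA-6 took a mean of 53.1% ± 11.4 (SD, n = 10) of the class I counts on Day 8, 27.2% ± 16.2 on Day 10 and 18.3% ± 7.53 on Day 12. On Day 8 its share ran from 21.5% in male embryo d08_m_103 to 58.8%, with a median of 57.2%, and on Day 12 from 6.74% to 32.4%. The share of SLA-6 was 34.7 percentage points lower on Day 12 than on Day 8 (-34.73, adjusted p = 0.00042) by a two-sided permutation test with Benjamini-Hochberg adjustment over 21 tests. It was 25.9 points lower on Day 10 than on Day 8 (-25.9, adjusted p = 0.00535, permutation test).

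SLA-1 had the lowest mean share on Day 8, with 3.85% ± 1.97 on Day 8, 8.93% ± 7.36 on Day 10 and 17.3% ± 6.49 on Day 12 (12 against 8: adjusted p = 0.00042, permutation test). SLA-2 had 15.8% ± 7.47, 25.4% ± 8.17 and 34.2% ± 3.48, and differed in all 3 comparisons (adjusted p = 0.0446, 0.0194 and 0.00042, permutation test). The share of SLA-3 was 8.34% on Day 8, 16.5% on Day 10 and 9.30% on Day 12, that of SLA-8 was 7.29%, 7.94% and 9.26%, and neither passed in any comparison. In all, 9 of the 21 differences passed, and 5 did when Day 10 was represented by the low-numbered embryos. Then the share of SLA-6 was lower by 15.67 points on Day 10 than on Day 8 (-15.67, adjusted p = 0.0629, permutation test) and lower on Day 12 than on Day 10 (-19.05 points, adjusted p = 0.00734, permutation test). These are shares of counts, not of molecules, since longer transcripts give more reads.

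**Figure D1:**
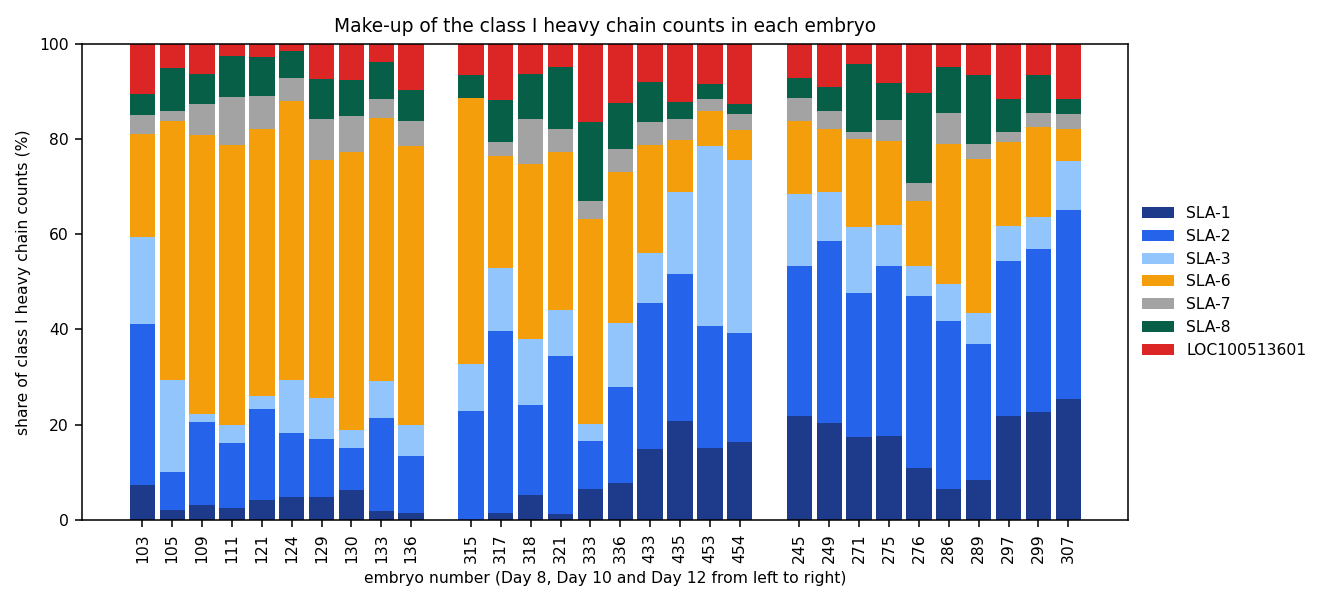
Share of the summed class I heavy chain counts (y axis, percent) that fell on each of 7 genes in each embryo (x axis, embryo number, with Day 8, Day 10 and Day 12 from left to right). SLA-6 holds the largest part in 9 of the 10 Day 8 bars, and in all 10 Day 12 bars SLA-1 and SLA-2 together hold more than it does.

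B2M, the light chain common to all class I molecules, rose with all embryos in the fit already from Day 8 to Day 10. Copy 1 had levels of 0.316, 0.609 and 8.06 CPM on Day 8, 1.22, 3.49 and 37.2 CPM on Day 10, and 9.53, 13.5 and 35.5 CPM on Day 12. Copy 2 had 0.197, 0.550 and 5.84 CPM, then 0.825, 3.11 and 27.4 CPM, then 7.22, 9.90 and 27.1 CPM. Male embryo d08_m_103 was far above the rest of Day 8, the Day 12 embryos all lay above it, and Day 10 again split into the high-numbered embryos (10.8 to 37.2 CPM in copy 1) and the low-numbered embryos (1.22 to 4.10 CPM).

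Both copies rose from Day 8 to Day 10, copy 1 7.20-fold (log2 2.85, SE 0.64, FDR 0.00037) and copy 2 6.89-fold (log2 2.79, SE 0.62, FDR 0.00033). Each call was lost when male embryo d10_m_435 or male embryo d10_m_453 was left out, with log2 fold changes of 2.43 and 2.49 for copy 1 and 2.38 and 2.42 for copy 2. With Days 8 and 10 alone in the fit (2.85 and 2.78) or males alone (2.74 and 2.70) neither copy was called. From Day 8 to Day 12 the sum of the copies rose 10.7-fold (log2 3.42, SE 0.64, FDR 2.2e-05), and by a log2 value of 4.13 without the 7 embryos, while from Day 10 to Day 12 its log2 fold change was 0.58 (SE 0.58, FDR 0.40). When only the low-numbered embryos stood for Day 10, the sum had a log2 fold change of 0.69 before Day 10, which did not pass, and 2.74 after it, which did. With the high-numbered embryos alone the later value was -0.53. Without the 7 embryos both intervals passed, with 1.66 and 2.47. The 7 were chosen after their values were seen and include the Day 8 embryo highest in both copies. These 2 calls therefore follow in part from the choice and are no test.

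Heavy chains and B2M went together between the embryos of Day 12, less clearly on Day 8, and the relation did not pass on Day 10. Across the 10 Day 12 embryos the log2 levels of the 2 sums had a Pearson r of 0.925 (adjusted p = 0.0012, permutation test) and a Spearman rho of 0.927 (adjusted p = 0.00444, permutation test), and r was 0.836 without the 2 embryos farthest from the median. Across the 10 Day 8 embryos r was 0.869 (adjusted p = 0.00486, permutation test) and rho 0.745 (adjusted p = 0.0534, permutation test), with r at 0.575 without the 2 farthest embryos, so the Day 8 relation rests in part on them. On Day 10, where the 2 runs form separate clusters, r was 0.67 across the low-numbered embryos (n = 6, adjusted p = 0.243, exact permutation test). In all 12 relations were computed and adjusted together. TAP1 with TAP2 and TAP1 with TAPBP gave none with an adjusted p under 0.05 on any day, and r ran from -0.0879 to 0.56. For these pairs Day 10 took all 10 embryos of both runs, with rho of 0.709 and 0.77 (adjusted p = 0.0648 and 0.0534, permutation test).

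**Figure D2:**
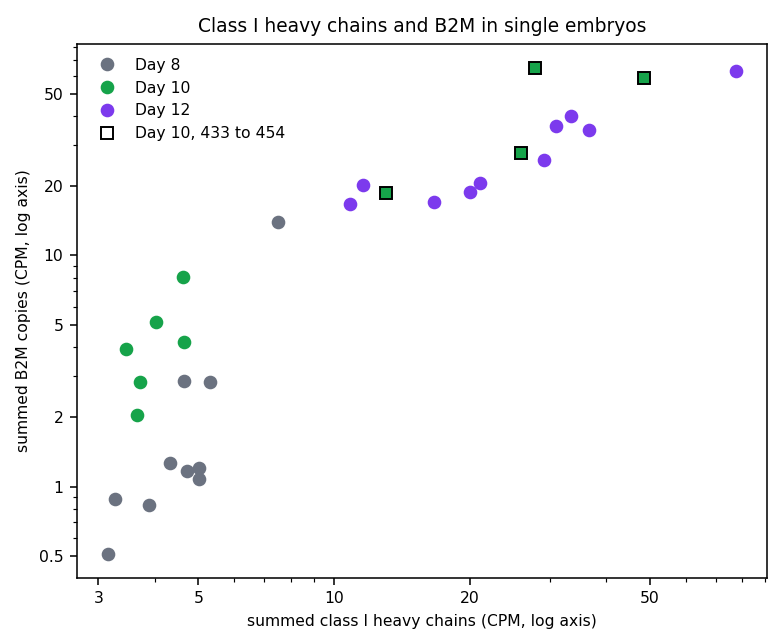
Summed B2M copies (y axis, CPM, log axis) against summed class I heavy chains (x axis, CPM, log axis) in the 30 embryos, colored by day, with the 4 high-numbered Day 10 embryos as framed squares. Those 4 lie among the Day 12 embryos, and 1 Day 8 embryo (7.51 CPM of heavy chains and 13.9 CPM of B2M) lies between the clouds.

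TAPBP, which codes for tapasin, was the member that separated the days best. It had 1.69, 2.12 and 2.88 CPM on Day 8, 2.43, 3.67 and 8.02 CPM on Day 10, and 9.39, 28.5 and 60.9 CPM on Day 12. All Day 12 embryos lay above all others, and Day 10 overlapped Day 8 only at its lower end, with the high-numbered embryos (4.45 to 8.02 CPM) above the low-numbered embryos (2.43 to 4.01 CPM). TAPBP rose 6.94-fold from Day 10 to Day 12 (log2 2.80, SE 0.26, FDR 6.3e-11) and 13.5-fold from Day 8 to Day 12 (log2 3.75, SE 0.27, FDR 1.6e-13). Its log2 fold change of 0.96 from Day 8 to Day 10 (SE 0.25, FDR 0.0020) was not called. The later rise was called with either run of Day 10 embryos, at 3.24 with the low-numbered embryos and 2.32 with the high-numbered embryos.

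TAP1 and TAP2 together form the peptide transporter, and TAP1 rose after Day 10 while TAP2 passed in no comparison. TAP1 had 2.22, 5.47 and 9.75 CPM on Day 8, 2.52, 4.87 and 10.6 CPM on Day 10, and 5.22, 14.2 and 36.4 CPM on Day 12. Levels of Days 8 and 10 covered nearly the same range, and 3 Day 12 embryos with 5.22 to 5.79 CPM (d12_f_245, d12_f_271 and d12_m_307) lay inside it. TAP1 rose 2.90-fold from Day 10 to Day 12 (log2 1.53, SE 0.33, FDR 0.00019), and its log2 fold change before Day 10 was 0.02 (SE 0.33, FDR 0.97). With the high-numbered embryos alone the later value was 1.03 and did not pass. TAP2 had medians of 0.562, 0.591 and 0.811 CPM, and its Day 12 embryos ran from 0.120 to 3.89 CPM, a range that held nearly all embryos of the earlier days. No change of TAP2 passed, with log2 fold changes of 0.24 (SE 0.48), 0.58 (SE 0.48) and, over both intervals, 0.82 (SE 0.48, FDR 0.13).

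CD74 is the only member of the class II route, and no class II heavy chain was analysed here. It had 0.188, 0.308 and 0.686 CPM on Day 8, 0, 0.527 and 0.890 CPM on Day 10, and 0.465, 1.07 and 9.67 CPM on Day 12. Female embryo d12_f_245 (8.54 CPM) and male embryo d12_m_307 (9.67 CPM) stood far above the rest of Day 12, which reached 2.15 CPM. The high-numbered embryos were low rather than high, with 0 to 0.364 CPM against 0.509 to 0.890 CPM in the rest of Day 10. CD74 rose 5.16-fold from Day 10 to Day 12 (log2 2.37, SE 0.54, FDR 0.00040), but the call was lost without female embryo d12_f_245 (log2 2.0) and without male embryo d12_m_307 (log2 1.80), and without the 7 embryos the value was 0.56 (FDR 0.12). The robust GLM did not call it either (log2 1.29), nor did the fit with the high-numbered embryos alone (log2 3.54, FDR 0.0024). From Day 8 to Day 12 it rose 7.26-fold (log2 2.86, SE 0.56, FDR 3.7e-05), and by a log2 value of 1.71 without the 7 embryos.

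Counted together, 3 of the 11 genes were DEG from Day 8 to Day 10 and all 3 rose (SLA-1 and both B2M copies), where 14.1% of all genes were DEG, 9.88% rose and 4.20% fell. By DESeq2 5 members were called. The median log2 fold change of the members was 1.001, against 0.03 over all genes. The count of members called was 0 with the low-numbered embryos alone, 7 with the high-numbered embryos alone and 2 without the 7 embryos. Of all 13103 genes, 1113, 1177 and 1230 rose in these fits. The runs and the 7 embryos were chosen after their values were seen, so these counts are no test. The member count was 0 without male embryo d10_m_435 or without male embryo d10_m_453, 5 without male embryo d08_m_103 of Day 8 or without male embryo d12_m_307 of Day 12, and 6 without female embryo d10_f_315. The other Day 10 embryos whose omission gave 5 were d10_f_336, d10_m_318, d10_m_321 and d10_m_333. Over all 30 omissions the member count ran from 0 to 6, where 1669 to 1939 of all genes were DEG. No member separated Day 8 from Day 10, where 22.0% of all genes did.

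From Day 10 to Day 12, 5 of the 11 genes rose (SLA-6, SLA-8, TAP1, TAPBP and CD74) and none fell, where 23.3% of all genes were DEG, 14.9% rose and 8.39% fell. The median was 1.46, against 0.04 over all genes. With the low-numbered embryos alone 9 rose, all but TAP2 and CD74, and with the high-numbered embryos alone 1 did, TAPBP. Of all 13103 genes, 1904 and 1252 rose in these fits. In smaller fits fewer members rose, with 2 in females alone, 1 in males alone and 3 with Days 10 and 12 alone in the fit. Of all genes 1263, 1169 and 1773 rose there. TAPBP was also the only member whose days did not overlap, where 16.6% of all genes did not overlap. Without the 7 embryos, 7 of the 11 members did not overlap, where 28.8% of all genes did not. The 7 embryos were chosen after their values were seen. They include the Day 10 embryos highest in SLA-1, SLA-2, SLA-3 and B2M, so this count follows in part from the choice and is no test.

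Over both intervals 8 of the 11 genes rose, where 32.5% of all genes were DEG, 22.0% rose and 10.4% fell, and SLA-3, SLA-6 and TAP2 did not pass. The median was 2.86, against 0.09 over all genes. Without the 7 embryos 9 rose, where 2943 of all 13103 genes did. Levels of Days 8 and 12 did not overlap in 6 members (SLA-1, SLA-2, SLA-8, both B2M copies and TAPBP), where 31.7% of all genes did not overlap. The same 6 were separated without the 7 embryos. Only 3 of the 11 members passed the authors' filter in the table of Day 8, against 11 in that of Day 12. SLA-1, SLA-2, SLA-8, CD74 and both B2M copies were called but not in the Day 8 table. Genes kept through a later day tend to be higher there, so these counts follow in part from the filter and are no test. The same limit holds for the 3 members called before Day 10, and after it for SLA-8 and CD74, absent from the Day 10 table. The 3 comparisons share embryos and are not independent of each other.

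**Figure D3:**
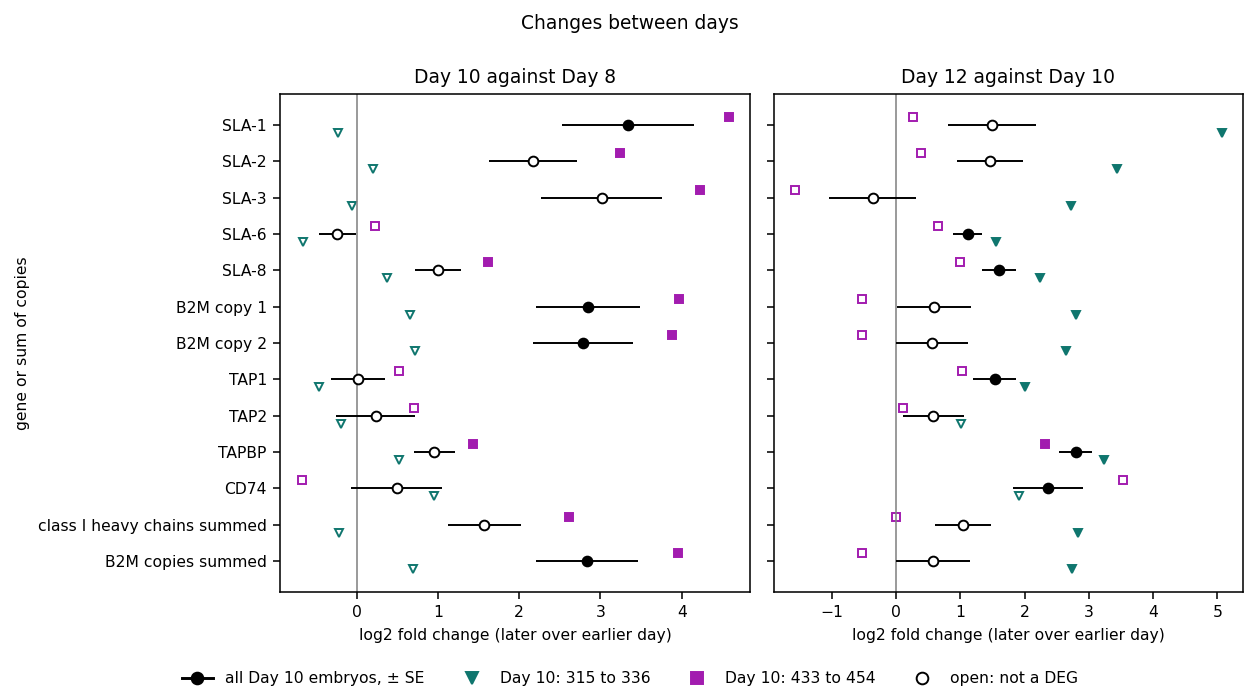
Log2 fold change of each gene and of the 2 sums (x axis) from Day 8 to Day 10 and from Day 10 to Day 12, with all Day 10 embryos (circles, bars ± SE), with the low-numbered embryos only (triangles) and with the high-numbered embryos only (squares), where filled symbols are DEG. In the classical heavy chains and B2M the squares lie right of the triangles in the left panel and left of them in the right panel.

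No member passed the threshold between female and male embryos. Of the members, 3 passed the authors' filter in the table of Day 8, 9 in that of Day 10 and 11 in that of Day 12, and 0 of them were DEG between the sexes with an FDR under 0.05 by the edgeR quasi-likelihood test, by the robust GLM or by DESeq2. By unadjusted p, 0 were under 0.05 on any day, and the smallest p of the quasi-likelihood test were 0.312, 0.256 and 0.116. Among all genes 0.658%, 0.223% and 0.123% were called on the 3 days.

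On Day 10 the 9 members had log2 fold changes, female over male, from -1.18 in B2M copy 1 to 0.07 in TAP1, and 8 of 9 lay below 0. The spread was wide, and log2 fold change minus or plus 2 SE reached from -3.72 to 1.57 over these genes. On Day 12 the same bounds were -2.03 and 2.37 over 11 members, and on Day 8 they were -0.90 and 0.58 over SLA-6, TAP1 and TAPBP. The summed heavy chains had a log2 fold change of -0.83 (SE 0.88) on Day 10 and -0.39 (SE 0.50) on Day 12. The difference between the sexes was also tested between days, and 0 of 11 members passed the interaction of sex and day in any of 3 contrasts, where 0% of all genes passed, and 0 members had an unadjusted p under 0.05 (edgeR quasi-likelihood test).

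Among the partners in peptide loading other than the members, 8 genes were in the table, and 1 rose from Day 8 to Day 10 and 3 from Day 10 to Day 12, while none fell. Of all genes 9.88% and 14.9% rose in these intervals, and 4.20% and 8.39% fell. TAPBPL, a relative of tapasin that edits the bound peptide, had medians of 0.97, 2.50 and 10.6 CPM, and no 2 days overlapped. It rose 3.0-fold and then 4.14-fold (log2 1.59, SE 0.18, FDR 1.0e-08, and log2 2.05, SE 0.17, FDR 8.2e-12). HSPA5, the chaperone BiP of the endoplasmic reticulum, rose 2.55-fold from Day 10 to Day 12 (log2 1.35, SE 0.18, FDR 1.4e-07) without overlap. ERAP1, which trims peptides to length, rose 4.85-fold in that interval (log2 2.28, SE 0.32, FDR 3.4e-07), with overlap. The median of the 8 genes was -0.12 before Day 10 and 0.62 after it, against 0.03 and 0.04 over all genes.

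The immunoproteasome, the form of the proteasome that favors peptides fit for class I, had 3 of 5 listed genes in the table. All 3 rose from Day 8 to Day 12, where 22.0% of all genes rose. PSMB10, a catalytic subunit, rose 5.65-fold (log2 2.50, SE 0.27, FDR 1.7e-09), with 1.41 to 2.48 CPM on Day 8 and 5.87 to 30.2 CPM on Day 12. On Day 10 the high-numbered embryos held 5.92 to 7.13 CPM and the rest 2.54 to 3.22 CPM. PSME2 and PSME1, which form the activator cap, rose 6.0-fold (log2 2.58, SE 0.14, FDR 4.5e-16) and 4.21-fold (log2 2.07, SE 0.13, FDR 3.5e-15), and neither overlapped between Day 8 and Day 12. Listed for comparison were 4 genes, the constitutive subunits PSMB5, PSMB6 and PSMB7 and the activator PSME3, which are not matched one to one with the 3 genes above. Of these 4, 0 were DEG in any of the 3 comparisons, where 14.1%, 23.3% and 32.5% of all genes were. Their median log2 fold change from Day 8 to Day 12 was 0.08. PSMB8 and PSMB9, the other catalytic subunits, were not analysed here.

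Class I-like molecules had 3 of 12 listed genes in the table. FCGRT, the heavy chain of the neonatal Fc receptor, which also pairs with B2M, had medians of 14.2, 13.6 and 42.9 CPM and rose 3.04-fold from Day 10 to Day 12 (log2 1.60, SE 0.17, FDR 2.3e-09). PROCR, the endothelial protein C receptor, rose 8.83-fold in that interval (log2 3.14, SE 0.44, FDR 2.7e-07), from a median of 0.152 to 1.19 CPM. In both genes Day 12 did not overlap Day 10. HFE, which takes part in iron uptake, fell by 2.32 on the log2 scale from Day 8 to Day 10 (SE 0.51, FDR 0.00030), and its median went from 0.784 to 0.146 CPM.

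Of 12 regulators of class I and class II transcription in the table, 5 rose from Day 10 to Day 12 and none fell in either interval. Among all genes 14.9% rose from Day 10 to Day 12, and 4.20% and 8.39% fell in the earlier and the later interval. After Day 10 the genes without overlap were RFX5 and RFXANK, subunits of the RFX complex that binds MHC promoters, and IRF1, an interferon regulatory factor. RFX5 rose 4.66-fold (log2 2.22, SE 0.32, FDR 5.5e-07), IRF1 3.78-fold (log2 1.92, SE 0.27, FDR 3.4e-07) and RFXANK 2.02-fold (log2 1.01, SE 0.14, FDR 1.3e-07). The median of the 12 was -0.12 before Day 10 and 0.51 after it. NLRC5 and CIITA, the master regulators of class I and class II, were not analysed here.

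The class II route had IFI30 and CTSS in the table beside CD74. IFI30, a reductase of the lysosome that unfolds antigens, rose in both intervals, with medians of 0.783, 1.82 and 7.37 CPM, and Day 12 did not overlap Day 10 (log2 1.94, SE 0.21, FDR 1.5e-09). CTSS, the protease that trims CD74, rose from Day 8 to Day 12 (log2 2.53, SE 0.54, FDR 0.00011). The pig conceptus makes interferon gamma, an inducer of class I genes in many cells, and IFNG had medians of 0.278, 42.7 and 9020 CPM. Of 18 interferon ligands, receptors and response genes in the table, 2 rose from Day 8 to Day 10, 7 from Day 10 to Day 12 and 8 over both intervals, where 9.88%, 14.9% and 22.0% of all genes rose, and none fell. The high-numbered embryos had 19.5 to 33.7 CPM of IFNG against 26.4 to 93.8 CPM in the rest of Day 10. A relation of IFNG with class I was not tested.

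Of the genes listed for maternal tolerance, 8 of 15 were in the table. LGALS3, which codes for galectin-3, rose 11.3-fold from Day 8 to Day 10 (log2 3.50, SE 0.24, FDR 3.5e-13), from a median of 8.93 to 110.1 CPM. CD59 and CD55, which shield cells from complement, rose 10.2-fold (log2 3.34, SE 0.19, FDR 1.3e-15) and 4.88-fold (log2 2.29, SE 0.24, FDR 1.6e-09) from Day 10 to Day 12, and TGFB1, the cytokine TGF-beta-1, rose 7.05-fold (log2 2.82, SE 0.27, FDR 1.2e-10). None of these 4 overlapped between the days of its rise. The other 4 genes did not pass in either interval, and none of the 8 fell. Over all genes 9.88% rose and 4.20% fell from Day 8 to Day 10, and 14.9% and 8.39% from Day 10 to Day 12.

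**Figure D4:**
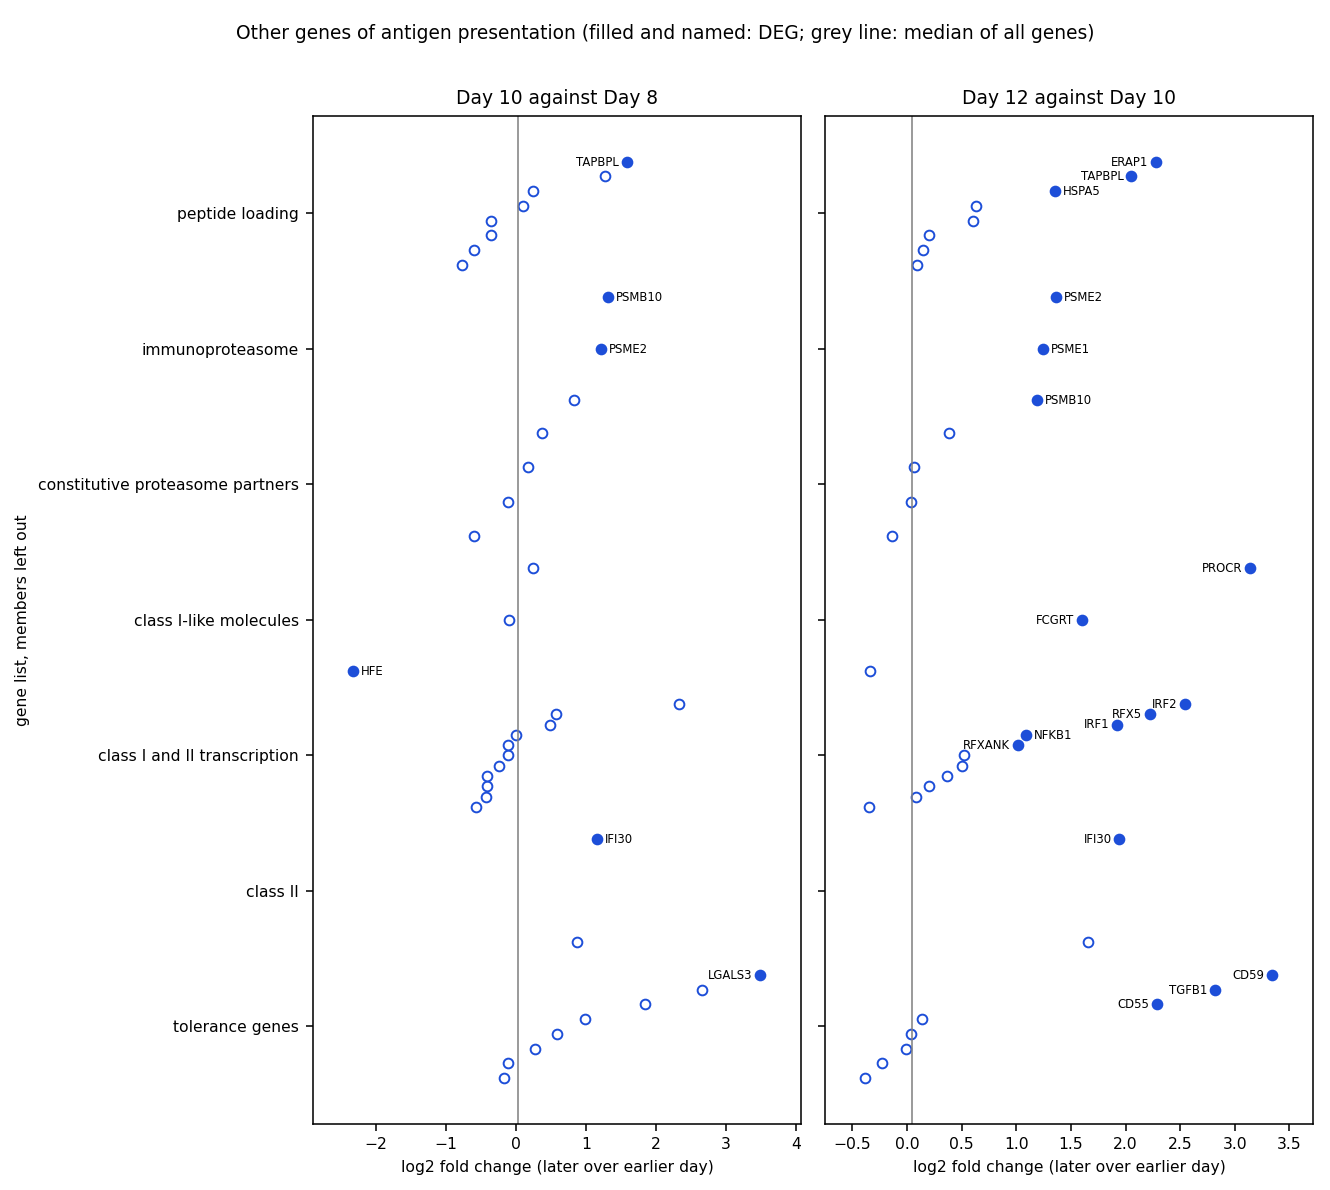
Log2 fold change (x axis) of the other genes of the pathway, by gene list (y axis), without the members and 1 regulator, from Day 8 to Day 10 and from Day 10 to Day 12. Filled and named points are DEG and the grey line is the median of all genes. The 3 immunoproteasome genes lie right of the 4 genes listed as constitutive proteasome partners in both panels.

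The genes whose level over the 30 embryos was most like that of the summed heavy chains were MAL2 (Pearson r 0.944), UGT1A6 (0.938), PARM1 (0.931), ADCY7 (0.93) and MAL (0.929), out of 13096 genes compared. Most like the sum of the B2M copies were IFITM1 (0.956), UGT1A6 (0.95), ISG12(A) (0.943), SNPH (0.937) and MYH14 (0.933). The 30 points share 3 days and, on Day 10, the 2 runs of embryos, so each r is a description. MAL2, a protein of vesicle transport in epithelia, had 1.5 to 9.10 CPM in the high-numbered embryos and 0.113 to 1.02 CPM in the rest of Day 10. IFITM1, an interferon-induced membrane protein, had 5.04 to 17.1 CPM against 0.259 to 1.56 CPM. Without the 7 embryos the r of these genes ran from 0.905 to 0.944 over 23 embryos.

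Some markers of other cells were DEG between days as well. Of the 5 leukocyte markers, LAPTM5 rose and FCER1G fell from Day 8 to Day 10, AIF1 rose from Day 10 to Day 12 and FCER1G fell again, and their summed level was 45.5 to 67.6 CPM on Day 8, 34.7 to 51.0 on Day 10 and 87.2 to 160.8 on Day 12. The defining leukocyte gene PTPRC and the T and B cell markers were not analysed here. The 6 markers of maternal uterus and blood summed to 17.2 to 49.2, 18.2 to 47.1 and 35.8 to 214.8 CPM on the 3 days, with MUC4 rising in both intervals and PECAM1 from Day 10 to Day 12. MUC4, a mucin of the uterine surface, was at 0 in 9 of 10 Day 8 embryos and HBB in 8 of 10. The part of these cells in the levels of the members was not tested.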

How the data were processed

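RNA of 30 single embryos was measured as 100-bp single-end reads from stranded mRNA libraries. Per the study's methods, the authors removed adapters and low-quality ends with Trim Galore, trimmed 5′ bases, aligned the reads in Galaxy to the NCBI release of Sscrofa11.1, and dropped genes below a CPM cutoff. Which aligner and counting tool were run, with which use of strand and of reads shared by gene copies, is not given in the sources used here. The files deposited hold unnormalized read counts for NCBI gene identifiers, in 1 table of all embryos (13103 genes) and 1 for each day (11405, 11675 and 12220 genes). Groups came from the sample labels.

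Tests used edgeR 4.0.16 in R 4.3.3 (limma 3.58.1, DESeq2 1.42.0) and Python 3.11.15 (numpy 2.4.6, pandas 2.3.3, scipy 1.17.1, matplotlib 3.10.9). CPM are scaled by TMM factors, and log2 levels use a prior count of 2. All genes of a table were tested by robust quasi-likelihood F tests, with adjustment by Benjamini and Hochberg. For days, 1 fit held 3 groups, and genes with an FDR below 0.001 that moved by more than 1 on the log2 scale are called DEG. For sexes, the table of the day was fitted, and DEG are genes with an FDR below 0.05. The SE is the size of the log2 fold change over the square root of F. For the sums, the 7 class I genes and the 2 B2M copies each replaced their genes by 1 row. Shares were compared by permutation with 100000 resamples. A count of 3 or fewer was taken as the floor. In each simulation, changes of 1.5 and of 3 on the log2 scale were put into 100 genes each, drawn from genes with a mean above 10 counts. No split within Day 10 was simulated, so the recovery need not hold for members with few counts on Day 8 or split on Day 10. On simulated counts of 13103 genes the test of Day 12 against Day 10 recovered 83% of changes of 1.5 and 97% of changes of 3, with 0 unchanged genes called. For the sexes 92%, 88% and 73% of changes of 1.5 were recovered on Days 8, 10 and 12, with 10, 3 and 3 unchanged genes called. The interaction of sex and day, Day 12 minus Day 8, recovered 65% of changes of 1.5, with 6 unchanged genes called. Read totals limit low genes, so values near the floor carry a counting error beside the spread between embryos.

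All members are named. Of the other lists, genes were named when called without overlap of the days, at most 4 per list, and ERAP1, HFE, CTSS, IFNG, the proteasome genes and the markers were added after their values were seen. The 10 members and all lists were chosen with earlier results of these data known. Alternatives tried were the robust GLM, DESeq2, RLE factors, library size alone, filters of 10 counts in 5 embryos or of 1 CPM on average, a sex term, 1 sex only, 2 days in the fit, other thresholds and prior counts, and each embryo left out. Chosen after seeing the data were the 2 runs of Day 10 embryos and the omission of 7 embryos. The single values of 1 regulator and its 3 relations are not reported here. No sequences are shown, and gene lengths were not used, so levels are not compared between genes.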

Additional observations from a re-analysis of the deposited data

Results flagged for a closer look

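Dixon's ratio was taken on log2 levels in 78 groups, each 1 measured level in the 5 embryos of 1 day and sex. Of these groups 4 held 1 embryo set apart from the other 4, and chance sets apart about 1 in 20 such groups. The levels below are in CPM, on which the ratios would differ. B2M copy 2 was 1.31 CPM in female embryo d08_f_105 of Day 8, against 0.401 to 0.572 CPM in the other female embryos of that day. TAP1 was 2.75 CPM in female embryo d08_f_129 of Day 8, below the 5.37 to 6.12 CPM of the others. TAP2 was 0.111 CPM in male embryo d08_m_136 of Day 8, against 0.464 to 0.658 CPM, and rests on 3 counts. CD74 was 9.67 CPM in male embryo d12_m_307 of Day 12, against 0.465 to 1.14 CPM in the other males, and the rise of CD74 from Day 10 to Day 12 was no longer called without it.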

How the results depend on the processing

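From Day 8 to Day 12, every alternative other than single sexes kept at least 8 members called and at most 10. Having 5 embryos per sex and day limits the comparison of the sexes, low reads limit SLA-1, SLA-3, SLA-8, TAP2 and CD74, and shared reads limit single heavy chains. Scaling by library size alone moved the median log2 fold change of all genes to -0.15 from Day 8 to Day 10, to 0.24 from Day 10 to Day 12 and to 0.10 over both, against 0.03, 0.04 and 0.09, and DEG then split into 1027 higher and 811 lower on Day 10 than on Day 8, against 1295 and 550. No paired analysis was possible because the labels do not say which female and male embryos shared a sow, and no embryo number occurs in more than 1 group. The planned relation of the heavy chains with NLRC5 was not run, and prior counts of 0.5 or 5 left 2 of 12 relations past the threshold, as before. For each change given here the cause was not tested. Fits of 1 sex or with embryos left out also hold fewer embryos, and the part of that was not tested either.

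Members called from Day 8 to Day 10 numbered 5 by DESeq2, 0 in males alone, 0 with only both days in the fit, 0 with the low-numbered and 7 with the high-numbered Day 10 embryos, and 7 at an FDR of 0.05 with no limit on the fold. Those called from Day 10 to Day 12 numbered 2 in females, 1 in males, 3 with only both days in the fit, 9 with the low-numbered and 1 with the high-numbered embryos, and 9 without the 7 embryos, when 7 members did not overlap. From Day 8 to Day 12, 2 were called in males. Over all genes, DEG from Day 8 to Day 10 numbered 977 in females, 1067 in males and 7353 at an FDR of 0.05, those from Day 10 to Day 12 numbered 2003 in males and 7821 at an FDR of 0.05, and those from Day 8 to Day 12 numbered 9606 at an FDR of 0.05. Between the sexes the share of all genes called on Day 8 was 1.37% by the robust GLM, 1.13% by DESeq2 and 0.275% in a fit of 6 groups, against 0.658%. On Day 10 it was 0.36% by the GLM and 0.454% by DESeq2, against 0.223%, and on Day 12 it was 0.827% by the GLM, 1.37% by DESeq2 and 20.3% in the fit of 6 groups, against 0.123%. No member was called in any of these fits.

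The summed heavy chains passed from Day 8 to Day 10 by DESeq2 (log2 1.585), at an FDR of 0.05 (1.57) and with the high-numbered embryos (2.61), and were -0.22 with the low-numbered ones and -0.11 without the 7 embryos. From Day 10 to Day 12 they passed by the GLM (1.83), at an FDR of 0.05 (1.04), with the low-numbered embryos (2.84) and without the 7 (2.43). The summed B2M copies did not pass from Day 8 to Day 10 in males (2.74), with both days alone in the fit (2.83) and with the low-numbered embryos (0.69). From Day 10 to Day 12 they passed by the GLM (1.53), with the low-numbered embryos (2.735) and without the 7 (2.47), and were -0.53 with the high-numbered ones. In males neither sum passed from Day 8 to Day 12 (2.67 and 3.12).

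Signs turned from Day 8 to Day 10 with the low-numbered embryos in SLA-1 (-0.23), SLA-3 (-0.056), TAP1 (-0.47) and TAP2 (-0.19), with the high-numbered ones in SLA-6 (0.23) and CD74 (-0.68), and without the 7 embryos in TAP1 (-0.56) and TAP2 (-0.17). TAP1 was -0.077 by the GLM, -0.14 by library size alone and -0.11 in males, and TAP2 was -0.11 in females. From Day 10 to Day 12 SLA-3 was 1.24 by the GLM, 2.72 with the low-numbered embryos and 2.13 without the 7, and the B2M copies were -0.52 and -0.53 with the high-numbered ones. Between the sexes, SLA-6 on Day 8 was 0.0022 and CD74 on Day 12 -0.0093 by library size alone, SLA-1 on Day 12 was 0.11 by the GLM, and TAPBP on Day 10 was 0.14 by the GLM, 0.00037 by DESeq2, 0.00040 with RLE factors, 0.010 by library size alone and 0.011 in the fit of 6 groups. With the low-numbered embryos 5 differences in share passed, and the share of SLA-1 on Day 10 minus Day 8 was -0.18 points and that of SLA-8 on Day 12 minus Day 10 was -1.145 points.

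With 1 embryo left out at a time, members called from Day 8 to Day 10 ran from 0 to 6, those from Day 10 to Day 12 from 4 to 5 and those from Day 8 to Day 12 from 8 to 9. The B2M sum ran from 2.42 to 3.81 from Day 8 to Day 10. TAP1 ran from -0.15 to 0.16 from Day 8 to Day 10 and SLA-3 from -0.71 to 0.50 from Day 10 to Day 12. The share of genes called between the sexes lay at 0.386% to 0.614% on Day 8 and at 0.111% to 0.197% on Day 10. Female over male, the lowest and highest log2 values on Day 8 were -0.13 and 0.075 in SLA-6 and -0.37 and 0.13 in TAP1. On Day 10 they were -2.78 and 0.73 in SLA-3, -0.23 and 0.49 in TAP1, -0.40 and 0.15 in TAP2, -0.22 and 0.37 in TAPBP and -1.59 and 0.055 in the heavy chain sum. On Day 12 they were -0.75 and 0.46 in SLA-1, -0.89 and 0.00015 in SLA-2, -0.74 and 0.43 in SLA-3, -0.0046 and 0.29 in SLA-8, -0.67 and 0.014 in TAP1, -0.38 and 0.98 in TAP2, -1.03 and 1.75 in CD74 and -0.61 and 0.21 in the heavy chain sum.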
